A study of Sus scrofa with 16 samples.

Results

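Glycogen genes were followed across 16 pig hearts as the probe sets of an Affymetrix porcine array whose gene symbol is PPP1R3B, PPP1R3C, PYGM, PYGB, GYS1, GBE1 or UGP2. Of these 7 symbols 4 were named on the platform annotation, giving 10 of the 23935 probe sets tested: 1 for PPP1R3B, 4 for PYGM, 3 for GYS1 and 2 for UGP2. PPP1R3C, PYGB and GBE1 were not analysed here. A probe set is a group of short DNA probes against a transcript, and its value is a log2 signal, so that a difference of 1 is a doubling.

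The animals were Yorkshire x Landrace swine of 2 to 3 months, 8 exercise-trained and 8 sedentary, with 4 females and 4 castrated males in each group. Left ventricular tissue was taken 4 to 5 weeks into the training protocol, and each animal had 1 array. Castration of the males was common to both groups, and the labels name no other treatment and no exercise load. Of 9 cardiomyocyte markers 8 were measured, with mean signals of 13.49 to 14.61 log2, close to the highest value on the arrays (14.86), which checks the tissue and not the stability of these genes.

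Glycogen is the branched glucose store of muscle and liver. In the heart it is a reserve for anaerobic work and ischaemia. UGP2 makes UDP-glucose, the activated sugar that glycogen synthase, encoded in muscle by GYS1, adds to the growing chain. Muscle glycogen phosphorylase, PYGM, cuts the chain back to sugar phosphate. Protein phosphatase 1 turns the synthase on and the phosphorylase off, and it is held on the glycogen particle by targeting subunits of the PPP1R3 family. PPP1R3B is the member best known from liver.

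The first question was which of these transcripts differ between trained and sedentary hearts. PPP1R3B was higher in exercised animals, and the 9 probe sets of PYGM, GYS1 and UGP2 did not pass the test. PPP1R3B rose 1.47-fold, the largest difference of the 10. The 4 PYGM probe sets differed by 0.00 to 0.17 log2, the 3 GYS1 probe sets by -0.27 to -0.06 and the 2 UGP2 probe sets by 0.03 and 0.19. The test was limma over all 16 arrays with a mean for each combination of training and sex, two-sided, and a probe set was called at a Benjamini-Hochberg adjusted p under 0.05 over all tested probe sets. By that rule 1 of 10 glycogen probe sets was called, against 13.4% of all probe sets. Calls were rarer among brighter probe sets, at 4.69% above the 60th percentile of mean signal, where 8 of the 10 lay. A count of 1 in 10 is too small to set against either share. The median difference was 0.03 log2 over the 10 probe sets and 0.00 over all.

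**Figure D1:**
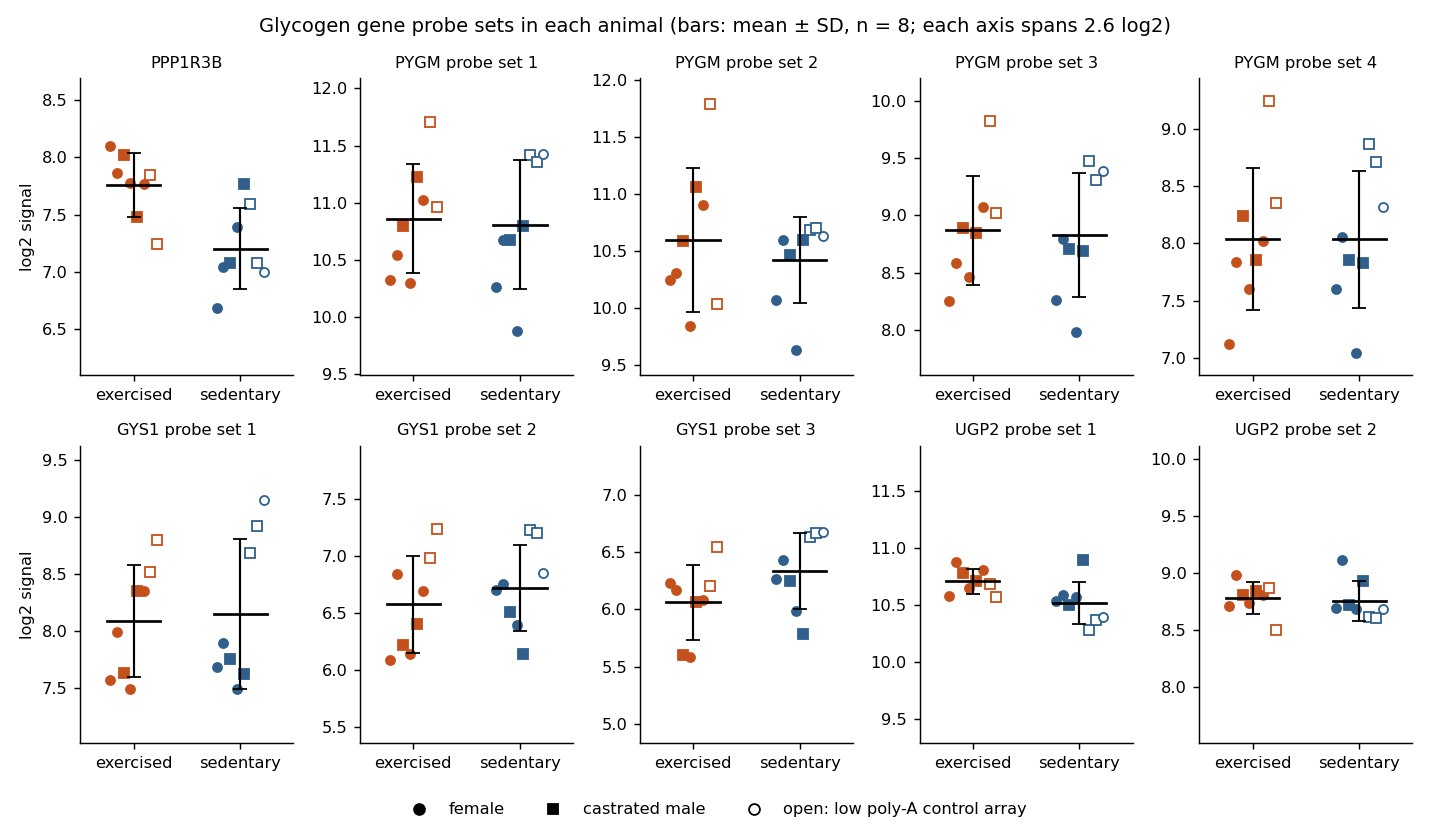
Log2 signal of each of the 10 probe sets in each animal, exercised left and sedentary right, with mean ± SD (n = 8 per group). Circles are females, squares castrated males, and open symbols are the 5 arrays with low spiked-in controls. PPP1R3B sits higher in exercised animals, while the PYGM and GYS1 groups overlap and their open symbols lie mostly at the top.

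PPP1R3B (Entrez gene 100515931) ranged from 7.25 to 8.10 log2 in exercised animals with a median of 7.81, against 6.69 to 7.77 with a median of 7.08 in sedentary animals. All 8 exercised animals lay above the sedentary mean, 5 of them above every sedentary animal, yet the ranges overlapped, as they did for all 10 glycogen probe sets and for all but 3.12% of those tested. The means were 7.76 ± 0.28 in exercised and 7.20 ± 0.35 in sedentary animals (SD, n = 8 each). The difference was 0.56 log2 (SE 0.138, 95% interval 0.27 to 0.85), with an adjusted p of 0.0138 in limma. An exact permutation test over the 12870 ways to split the 16 arrays gave p = 0.00513 for PPP1R3B. That p was not adjusted for the number of probe sets tested, and the test took no account of sex or control level. Leaving out any 1 array kept the difference between 0.50 and 0.63 log2 and the call. The mean level of PPP1R3B stood at the 69.3 percentile of all probe sets, in the seventh of 10 equal bins by level, where 7.06% of probe sets were called. With only probe sets at or above the 60th percentile tested, the adjusted p was 0.0766 and the call was lost.

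In females the PPP1R3B groups did not overlap. The 4 exercised females had 8.10, 7.86, 7.78 and 7.76 log2, against 6.69, 7.04, 7.39 and 6.996 in the 4 sedentary females. Their means were 7.88 ± 0.15 and 7.03 ± 0.29 log2 (SD, n = 4 each), a difference of 0.85 (SE 0.194, adjusted p = 0.025 in limma). It was not called with only probe sets at or above the 40th (adjusted p = 0.0676) or the 60th percentile tested (adjusted p = 0.162). Of all probe sets 3.72% were called in females, and 13.7% had female groups without overlap. The call in females was lost without exercised 1 (0.77, adjusted p = 0.0817), exercised 2 (0.85, adjusted p = 0.0541) or exercised 4 (0.88, adjusted p = 0.0509), and without sedentary 1 (0.73, adjusted p = 0.0785) or sedentary 2 (0.85, adjusted p = 0.0597), all from limma.

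In castrated males the PPP1R3B groups overlapped, while 10.7% of all probe sets had none there. The 4 exercised castrated males had 8.02, 7.48, 7.85 and 7.25 log2, against 7.08, 7.77, 7.59 and 7.07 in the 4 sedentary ones. The means were 7.65 ± 0.35 and 7.38 ± 0.35 log2 (SD, n = 4 each), and the difference of 0.27 (SE 0.194) did not pass limma's test (adjusted p = 0.544), where 3.77% of all probe sets did. The test of the difference between the sexes' effects gave 0.58 log2, with a 95% interval of -0.01 to 1.16 and an adjusted p of 1.00 in limma (unadjusted p = 0.053). An effect limited to females was therefore not shown. In limma 0 of the 23935 probe sets, or 0%, passed that test, and 621 (2.59%) had an unadjusted p under 0.05, among them 0 of the 10 glycogen probe sets. For PYGM, GYS1 and UGP2 no probe set was called in females or in castrated males.

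**Figure D2:**
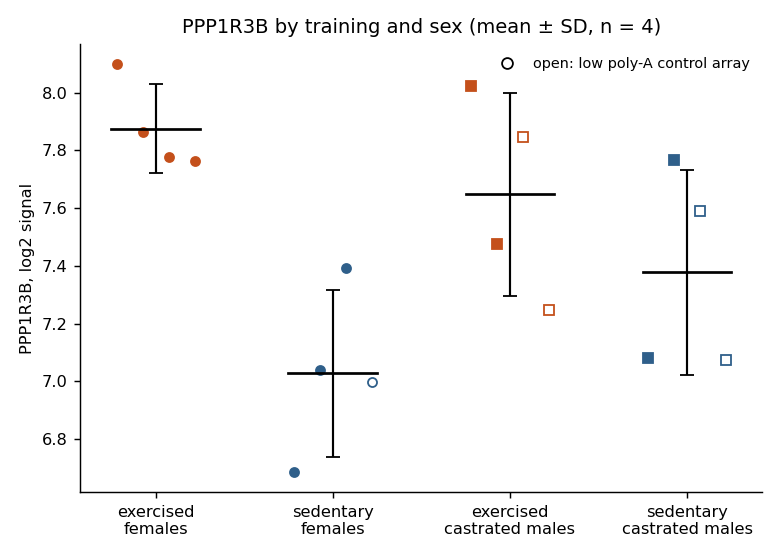
PPP1R3B log2 signal in the 4 combinations of sex and training, with mean ± SD (n = 4 each) and 1 point per animal; open symbols are arrays with low spiked-in controls. The exercised females, from 7.76 to 8.10, lie above all sedentary females, while the castrated males of both groups share the range from 7.25 to 7.77.

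PYGM (Entrez gene 733659), the muscle phosphorylase, was read by 4 probe sets, here numbered in order of falling mean signal. The first ranged from 10.30 to 11.70 log2 in exercised animals with a median of 10.88, against 9.87 to 11.42 with a median of 10.74 in sedentary animals. Exercised 7 had the highest value on all 4 PYGM probe sets, and sedentary 4 the lowest. The means of the first were 10.86 ± 0.48 in exercised and 10.81 ± 0.57 in sedentary animals (SD, n = 8 each). The difference was 0.05 log2 (SE 0.207, 95% interval -0.39 to 0.49, adjusted p = 0.912 in limma). The interval spans both directions, so no direction can be given for PYGM.

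The other PYGM probe sets gave the same picture. The second, whose suffix _s_ marks probes that can match more than 1 transcript, averaged 10.60 ± 0.63 in exercised and 10.42 ± 0.38 in sedentary animals. The third averaged 8.87 ± 0.48 in exercised and 8.83 ± 0.54 in sedentary animals. The fourth averaged 8.03 ± 0.62 in exercised and 8.03 ± 0.60 in sedentary animals (SD, n = 8 each). The adjusted p values of these 3 in limma ran from 0.679 to 1.00. With the 4 averaged to 1 value per animal the difference was 0.07 log2 (SE 0.203, adjusted p = 0.88 in limma).

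Between the sexes no PYGM probe set passed the test. The means of its 4 probe sets in females minus those in castrated males were -0.67 to -0.46 log2. For the first, females averaged 10.55 ± 0.49 and castrated males 11.12 ± 0.36 log2 (SD, n = 8 each), a difference of -0.56 (SE 0.207, adjusted p = 0.537 in limma; unadjusted p = 0.0157). The adjusted p values of all 4 were 0.537 to 0.539, in a comparison that called 0.0919% of all probe sets, and the ranges of the sexes overlapped on each of the 4. The sexes were not spread evenly over the arrays with low spiked-in controls described below, which held 1 female and 4 castrated males. With those arrays as a block the PYGM differences were -0.37 to -0.22 log2 (adjusted p = 0.967 in limma for each). On the other 11 arrays alone they were -0.47 to -0.32 log2 (adjusted p = 0.523 to 0.655 in limma).

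GYS1 (Entrez gene 574064), the muscle glycogen synthase, had 3 probe sets, numbered in the same way. The first ranged from 7.50 to 8.80 log2 in exercised animals with a median of 8.17, against 7.49 to 9.14 with a median of 7.82 in sedentary animals. Sedentary 7 and 8 stood above all exercised animals, and the rest of both groups overlapped. The means were 8.09 ± 0.49 in exercised and 8.15 ± 0.66 in sedentary animals (SD, n = 8 each), a difference of -0.06 log2 (SE 0.262, 95% interval -0.62 to 0.50, adjusted p = 0.919 in limma). With the spiked-in control level as a block its sign turned, to 0.07.

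The third GYS1 probe set had the largest negative difference of the 10. It ranged from 5.58 to 6.55 log2 in exercised animals with a median of 6.12, against 5.78 to 6.67 with a median of 6.35 in sedentary animals. Of the 8 exercised animals 7 lay below the sedentary mean. The difference was -0.27 log2 (SE 0.160, 95% interval -0.61 to 0.07) and did not pass limma's test (adjusted p = 0.297). The second probe set averaged 6.57 ± 0.42 in exercised and 6.72 ± 0.38 in sedentary animals (SD, n = 8 each, adjusted p = 0.682 in limma).

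UGP2 (Entrez gene 397040), which supplies UDP-glucose, had 2 probe sets. The first, with the brighter signal, ranged from 10.57 to 10.88 log2 in exercised animals with a median of 10.70, against 10.28 to 10.89 with a median of 10.52 in sedentary animals. All 8 exercised animals lay above the sedentary mean, but the highest value of all was that of sedentary 5. The means were 10.71 ± 0.11 and 10.52 ± 0.19 log2 (SD, n = 8 each), a difference of 0.19 (SE 0.0828, 95% interval 0.01 to 0.37) that did not pass (adjusted p = 0.149 in limma). The exact permutation test gave p = 0.0281 for it, and 0.114 to 1 for the other 8 probe sets of PYGM, GYS1 and UGP2, without adjustment. Without sedentary 5 it was 0.25 log2 and passed, with an adjusted p of 0.0213 in limma. The second UGP2 probe set averaged 8.78 ± 0.14 in exercised and 8.75 ± 0.18 in sedentary animals (SD, n = 8 each, adjusted p = 0.883 in limma).

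**Figure D3:**
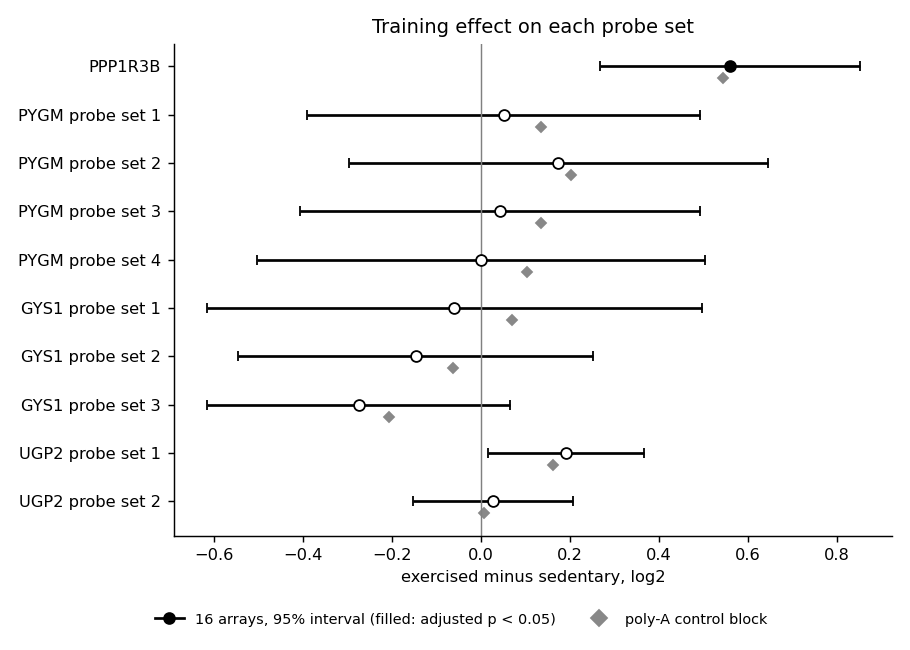
Difference in log2 signal, exercised minus sedentary, for each of the 10 probe sets, with its 95% interval from the fit to 16 arrays; grey diamonds give the difference with the spiked-in control level as a block. PPP1R3B, at 0.56, is the filled point that passed the test, and the first UGP2 probe set, at 0.19, is the only other whose interval lies above 0.

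Part of the spread in PYGM and GYS1 followed a split between arrays that the labels do not name. Bacterial poly-A control transcripts, which are spiked into the RNA before labelling, averaged 8.12 ± 0.36 log2 on 11 arrays and 6.35 ± 0.22 on the other 5 (SD). The gap between 3' and 5' actin probe sets was 2.19 log2 on the 11 arrays of high control level and 1.38 on the 5 of low level, and that for GAPDH was 0.20 and 0.233. The 5 low arrays were exercised 7 and 8 and sedentary 6, 7 and 8. Whatever separated them was not tested.

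The largest difference of the 10 across that split was that of the first GYS1 probe set, which ranged from 7.49 to 8.35 log2 on the 11 high arrays, against 8.52 to 9.14 on the 5 low arrays, without overlap and with a difference of means of -1.01. The fourth PYGM probe set ranged from 7.04 to 8.24 log2 on the high arrays, against 8.32 to 9.25 on the low arrays, also without overlap. In all, 6 of the 10 glycogen probe sets, 3 of PYGM and 3 of GYS1, differed by at least 0.5 log2 across the split, each lower on the high arrays. Over all probe sets 9.83% differed that much in either direction. PPP1R3B averaged 7.54 ± 0.45 log2 on the high arrays and 7.35 ± 0.36 on the low arrays (SD), and the first UGP2 probe set 10.68 ± 0.14 and 10.46 ± 0.16.

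The relation was also looked for within the 11 high arrays, for all 10 probe sets. The first GYS1 probe set was lower on arrays with a higher control level, with Pearson's r of -0.81 (permutation p = 0.00213, Benjamini-Hochberg adjusted 0.0213 over 10 relations) and Spearman's rho of -0.83 (permutation p = 0.0028, adjusted 0.028). Without the 2 arrays farthest from the median control level r was -0.84. For the other 9 the adjusted permutation p of Pearson's r ran from 0.0547 to 0.666.

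**Figure D4:**
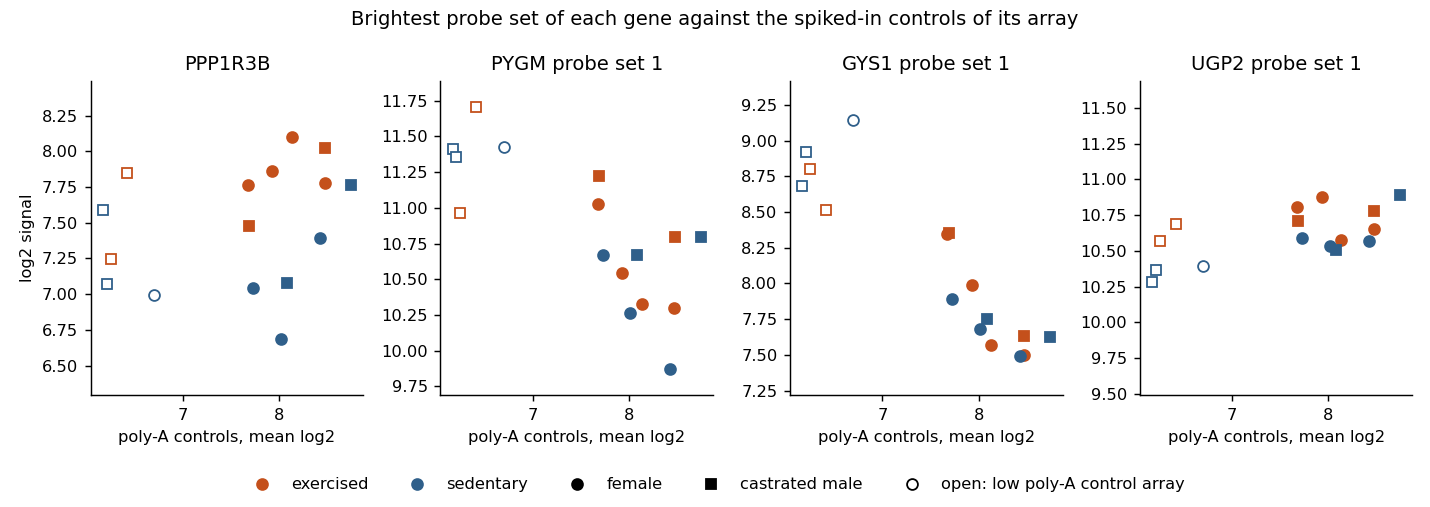
Log2 signal of the brightest probe set of each gene (vertical axes, each of equal span) against the mean log2 signal of the spiked-in poly-A controls on the same array, 16 animals in each panel; orange is exercised and blue sedentary. The 5 open symbols at the left, below 6.7 on the control axis, lie above all others for GYS1, and exercised PPP1R3B values lie mostly above sedentary ones on both sides of the gap.

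The PPP1R3B difference was positive on both sides of the split. On the 11 high arrays PPP1R3B averaged 7.83 log2 in 6 exercised and 7.19 in 5 sedentary animals. On the 5 low arrays it averaged 7.55 log2 in 2 exercised and 7.22 in 3 sedentary animals. With the control level as a block the effect was 0.54 log2 (SE 0.138) and passed limma's test (adjusted p = 0.0135). On the high arrays alone it was 0.58 and fell just short (adjusted p = 0.0532), and on the 5 low arrays it was 0.21 with a term for sex (adjusted p = 0.783). For the first PYGM probe set the fitted difference was 0.28 log2 on the high arrays (adjusted p = 0.34) and -0.052 on the low arrays (adjusted p = 0.953), neither past the test in limma.

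Probe sets of 1 gene agreed to different degrees. Within the 11 high arrays the 6 pairs of PYGM probe sets had Pearson's r of 0.72 to 0.97 and Spearman's rho of 0.74 to 0.96, with permutation p adjusted over 10 pairs of at most 0.0222. Without the 2 arrays farthest from the median the PYGM r values were 0.54 to 0.95. The 3 GYS1 pairs had r of 0.34 to 0.66, of which 1 passed (adjusted permutation p = 0.044), and rho of 0.41 to 0.67. Without 2 arrays the GYS1 r values were 0.57 to 0.81. The UGP2 pair had r of 0.47 (adjusted permutation p = 0.154), rho of 0.70 (adjusted permutation p = 0.03) and r of 0.21 without 2 arrays.

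The genes most like each member were sought by Pearson's r over the 16 arrays, among 7365 probe sets with 1 symbol and a level at or above the 40th percentile. For PPP1R3B they were BORCS6, a subunit of a complex that positions lysosomes (r = 0.90), the uncharacterised LOC100510975 (0.84), INTS10, of the Integrator complex (0.84), the DNA repair gene RAD50 (0.83) and the splicing-associated chaperone gene DNAJC8 (0.83). With the means of training and sex removed these r values were 0.51 to 0.76. BORCS6 rose by 0.31 log2, LOC100510975 by 0.52, INTS10 by 0.24 and DNAJC8 by 0.36, while RAD50 differed by 0.15 without passing (adjusted p = 0.11 in limma). Of all probe sets 13.4% were called. Genes chosen by likeness to PPP1R3B over both groups share its training difference in part by that choice, so their calls are no separate evidence.

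For the first PYGM probe set the most similar genes were LOC100525869 (r = 0.93), SDHA, of mitochondrial complex II (0.93), MACROD1 (0.93), ADSSL1, the muscle adenylosuccinate synthase (0.92), and the muscle stress kinase gene MAPK12 (0.92). For the first GYS1 probe set they were the cardiac transcription factor gene GATA4 (r = 0.97), AKT1S1, an inhibitor within the mTOR complex (0.97), BAG6 (0.96), OGDH, of the tricarboxylic acid cycle (0.96), and PKD1 (0.96). All 10 of these genes were lower on the high arrays, with differences of -1.05 to -0.16 log2, as PYGM and GYS1 were. By limma 0 of the 10 passed the training test, with adjusted p of 0.694 to 0.977. For the first UGP2 probe set they were the sterol synthesis gene MSMO1 (r = 0.90), ATP6AP2, GUCA2A, NAE1 and USP4 (r = 0.85 to 0.87), none past the training test (adjusted p of 0.0806 to 0.315 in limma). These r values describe likeness across the same 16 arrays, which share the split in control level. Choosing genes by such likeness carries over a member's own pattern across the split and the training groups. That these genes were lower on the high arrays and did not pass the training test is therefore no separate evidence.

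The wider pathway was described from 54 further genes in 5 lists, of which 37 were measured on 57 probe sets. On each gene's brightest probe set 2 rose, 2 fell and 33 did not pass, so 10.8% of genes passed, and the median difference was 0.02 log2. Over all 57 probe sets 5 rose and 5 fell, or 17.5% in either direction. Among all probe sets of the array 13.4% passed, 6.48% higher and 6.88% lower. Above the 60th percentile of level 4.69% passed. The pathway shares were not matched for level, so whether they exceed the background cannot be told from these counts. On the 11 high arrays alone 6 of 57 probe sets (10.5%) and 2 of 37 genes (5.41%) passed, against 10.3% of all probe sets.

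Among the other glycogen enzymes 1 of 3 measured genes passed, too few to set against the 13.4% of all probe sets. STBD1, which binds glycogen and tethers it to membranes, averaged 7.93 log2 in exercised animals (range 7.69 to 8.36) and 8.42 in sedentary animals (7.98 to 8.78) on its brighter probe set. It fell by 0.50 log2 (SE 0.128, adjusted p = 0.018 in limma), with plain differences of -0.35 on the high and -0.72 on the low arrays, and did not pass on the high arrays alone (-0.30, adjusted p = 0.17). Its dimmer probe set differed by 0.12 without passing. GYG1, which primes new glycogen, differed by 0.06 and PYGL, the liver-type phosphorylase, by -0.02, neither past the test.

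Phosphorylase kinase, which switches phosphorylase on, had 6 genes measured, calmodulin genes included, and none passed on its brightest probe set. PHKB, of the regulatory beta subunit, differed by 0.21 and PHKG2, a catalytic subunit, by 0.19, both without passing. Probe sets of the alpha subunit gene PHKA2 disagreed: the dimmest fell by 0.45, the next rose by 0.36 and the brightest differed by 0.17 without passing. For CALM3 a dimmer probe set fell by 0.26 and another rose by 0.25, while the brightest differed by 0.00.

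The catalytic subunits that PPP1R3B tethers did not pass. PPP1CA differed by 0.33, PPP1CB by -0.02 and PPP1CC by 0.07 log2 on their brightest probe sets, and the targeting subunit gene PPP1R3E by 0.05. Genes for glucose entry and sugar phosphates, 8 measured, had 0 calls on the brightest probe set. SLC2A4, the insulin-responsive glucose transporter, had a dimmer probe set that fell by 0.35 and another that rose by 0.40, with its brightest at -0.14 and not passing. SLC2A3 differed by -0.34 (adjusted p = 0.103 in limma) and HK1, a hexokinase, by 0.07.

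Of 16 kinases and receptors that act on glycogen enzymes, 2 rose and 1 fell. In either direction 13.4% of all probe sets passed, and 4.69% of those above the 60th percentile of level. INSR, ADRB1, PRKAG3, PRKAA1 and IRS1 lay below that percentile on their brightest probe sets. The list was small and not matched for level, so whether its calls exceed the background cannot be told. The fall was in PRKAG2, an AMPK regulatory subunit, to 7.46 log2 in exercised animals, against 8.34 in sedentary animals (difference -0.88 log2, adjusted p = 0.0121 in limma). PRKAG1, another gamma subunit of AMPK, rose by 0.29 (adjusted p = 0.0301 in limma), and by 0.44 on the high arrays alone (adjusted p = 0.00948). On the low arrays its plain difference was 0.07. The dimmer PRKAG1 probe set, at a mean of 9.07 log2, differed by 0.16 without passing (adjusted p = 0.289 in limma). IRS1, an adaptor of the insulin receptor, rose by 0.19 on a dim probe set (adjusted p = 0.0435) and did not pass on the high arrays alone (0.13, adjusted p = 0.228). AKT1, PRKACA, PRKAA2 and INSR did not pass on their brightest probe sets.

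**Figure D5:**
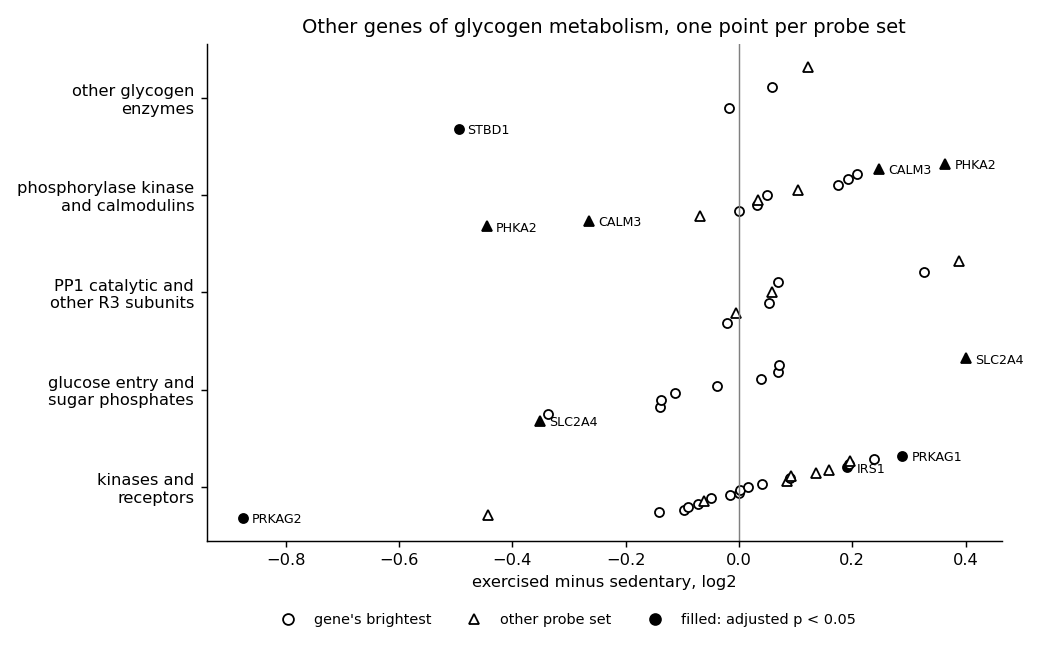
Difference in log2 signal, exercised minus sedentary, for the 57 probe sets of 37 further glycogen metabolism genes in 5 lists; circles are each gene's brightest probe set, triangles its others, and filled points passed an adjusted p of 0.05. STBD1, PRKAG2, PRKAG1 and IRS1 are the filled circles, while PHKA2, CALM3 and SLC2A4 have filled triangles on both sides of 0.

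Because whole tissue was measured, fewer cells of a type and less RNA per cell cannot be told apart in these values. On their brightest probe sets 0 of 8 cardiomyocyte, 5 endothelial, 4 fibroblast, 3 smooth muscle, 4 immune, 2 red cell, 2 adipocyte and 2 fast skeletal muscle marker genes passed the training test, in which 13.4% of all probe sets did. In the brightest of 10 equal bins by level, which holds the cardiomyocyte markers, 3.18% did. With so few genes per list, the absence of calls does not show that cell composition was unchanged. Among the other probe sets of these genes 1 passed, of the endothelial gene VWF, which fell by 0.39 log2 (adjusted p = 0.000548 in limma). That probe set was dim, at a mean of 5.06 log2, and the brightest VWF probe set differed by -0.004. The brightest probe sets of PECAM1, TEK, CDH5 and KDR differed by -0.19, -0.05, 0.03 and 0.09. AIF1, a macrophage marker, differed by 0.43 (adjusted p = 0.0508 in limma). The other immune genes did not share a direction on their brightest probe sets. CD14 differed by -0.29 (adjusted p = 0.141 in limma), PTPRC by 0.21 and CD3E by 0.18, all without passing. The part of such differences in the PPP1R3B result was not tested. The level of a list was taken as the mean, over its genes, of the deviation from each gene's average. The level of the cardiomyocyte list ran from -0.06 to 0.09 log2 in exercised and from -0.08 to 0.06 in sedentary animals. That of the immune list ran from -0.23 to 0.41 in exercised and from -0.65 to 0.38 in sedentary animals, and that of the smooth muscle list from -0.40 to 0.52 in exercised and from -0.40 to 0.99 in sedentary animals. The fast skeletal muscle genes MYH2 and TNNI2 were dim, at 3.93 and 5.37 log2.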

How the data were processed

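Total RNA of each left ventricle was hybridised to its own 1-channel array, per the labels' protocols. The authors deposited log2 signals, which ran from 2.87 to 14.86 with array medians of 6.236 to 6.242, so nothing was normalized further. The sources used here do not give their summarisation and normalization. Affymetrix controls and reporters (188 of 24123 probe sets) were left out. Symbols are those of GEO's platform table and can be dated; all 10 member probe sets matched RefSeq (Sscrofa11.1) by Entrez identifier.

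Means for training by sex were fitted using limma 3.58.1 (lmFit, eBayes; R 4.3.3), with 12 residual and 3.50 prior degrees of freedom. Adjusted p values for genes are limma's, and rose or fell means past the threshold. Listed genes were taken at their brightest probe set, with the others counted beside it. Permutation tests of correlations used 100000 resamples. The fit was tested on simulated data. The number of arrays limits precision.

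The members, the lists and the division of arrays by poly-A control signal (39 control probe sets, at the widest gap) were chosen with earlier results of these data known. Genes named are the members, genes of the 5 pathway lists and of the marker lists, and the 5 most similar genes for each member's brightest probe set. Alternatives were other normalizations, filters on level, eBayes settings, array weights, a replicate block, a poly-A block and subsets, no sex term, gene means and leaving out each array. Plots used matplotlib 3.10.9 (Python 3.11.15).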

Additional observations from a re-analysis of the deposited data

Results flagged for a closer look

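Of 60 sets of values tested for a far-lying sample (10 probe sets in the 2 groups and in the 4 combinations of sex and training), 2 had one, both on the second UGP2 probe set, and chance alone gives about 1 in 20. Among exercised castrated males exercised 8 had 8.50 log2, against 8.81 to 8.86 in the other 3. Among sedentary females sedentary 2 had 9.11 log2, against 8.68 to 8.69 in the other 3.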

How the results depend on the processing

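The PPP1R3B difference stayed positive under every alternative run, and its call was lost with probe sets below the 60th percentile left out (0.56, adjusted p = 0.0766 in limma), on the high poly-A arrays alone (0.58) and on the low ones alone (0.21). Members called were then 0, against 1 as reported. The percentile filters took away dim probe sets, among which calls were more frequent: 632 probe sets were called at or above the 40th percentile and 77 at or above the 60th, against 3197 as reported, and 0 on the 5 low arrays, where few samples are left. In females PPP1R3B stayed at 0.85 but was not called under either filter (0 members), with 87 and 1 probe sets called, against 890, and 2387 with array weights. In castrated males 56 and 0 were called under the filters, 1553 with the poly-A block and 124 on the high arrays, against 902. The sex difference called 5 at or above the 60th percentile and 40 with array weights, against 22. Pathway probe sets and genes called on the high arrays were 6 and 2, against 10 and 4. The cause was not tested for the changes with array weights and the poly-A block.

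Signs that turned belonged to differences that never passed. The first GYS1 probe set gave 0.081 with array weights, 0.071 with the poly-A block and 0.23 on the high arrays. The second UGP2 probe set gave -0.027 with weights and -0.0074 on the high arrays. The first PYGM probe set gave -0.052 on the low arrays and the fourth -0.00081 after quantile normalization.

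With each array left out in turn, PYGM ran from -0.063 to 0.20, 0.021 to 0.31, -0.070 to 0.17 and -0.14 to 0.095 on its 4 probe sets, GYS1 from -0.16 to 0.12 on its first, and UGP2 from 0.15 to 0.25 and -0.0018 to 0.081. Members called numbered 1 to 2, the second being UGP2 without sedentary 5. In females PPP1R3B ran from 0.73 to 0.97, with 0 to 1 members and 462 to 890 probe sets called, 505 without exercised 4, 591 without exercised 6, 538 and 507 without sedentary 1 and 2, 564 without sedentary 4 and 462 without exercised 1. In castrated males 471 to 1010 were called, 471 without sedentary 3, 568 without sedentary 5, 522 and 593 without exercised 7 and 8, and the sex difference called 20 to 83, the most without sedentary 8. Pathway counts were not run this way.

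With the shared replicate numbers as a block, PPP1R3B gave 0.56 (SE 0.157, adjusted p = 0.0346 in limma). The numbers were not taken to pair animals, since the labels tie them to no shared animal, litter or day. Of 8 same-numbered pairs 6 correlated above 0.1 (range over the 8 -0.01 to 0.44), and 2 of 8 exercised animals correlated best with their own number. Sex and the split in control level enter these correlations, so they cannot decide on pairing. The poly-A alternatives for the pathway counts were chosen after seeing the data.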

Other observations

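Among PP1 catalytic subunit genes some probe sets differed widely across the split in spiked-in controls. PPP1CA averaged 1.53 log2 higher on the 11 high than on the 5 low arrays on its brighter probe set and 1.79 higher on the other. The dimmer PPP1CC and PPP1CB probe sets were 1.02 and 0.70 higher on the high arrays, while their brightest differed by 0.28 and 0.08. The brightest probe sets of SLC2A4 and AKT1 differed the other way, by -0.99 and -1.01, while the dimmer AKT1 probe set differed by 0.13. In the training test PPP1CA was at 0.33 log2 (95% interval -0.49 to 1.14), which leaves its direction unknown. The cause of these differences was not tested.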
